A study of Arabidopsis thaliana with 6 samples.

Results

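Class III peroxidases are secreted plant haem enzymes, and their family in *Arabidopsis thaliana* was taken here as a list of 60 gene identifiers, all of which were rows of the expression table. Of these 60 genes, 36 had an FPKM (fragments per kilobase of transcript, scaled to the mapped fragments of the library) of 1 or more in at least 2 of the 6 libraries and are reported, and 24 were silent by that rule. The same rule kept 18843 of the 33690 features in the table. With a limit of 0.5 FPKM 39 members would be reported, and with 2 FPKM 28.

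Class III peroxidases take electrons from phenolic substrates and pass them to hydrogen peroxide. In the wall of xylem vessels and fibres they oxidise monolignols to radicals that couple into lignin, a step shared with the laccases, which use oxygen instead. Some members also release reactive oxygen in defence or loosen walls during elongation, and the hydrogen peroxide they use comes in part from NADPH oxidases and superoxide dismutases.

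Stem RNA of *hdt1* plants and wild-type Columbia plants was sequenced, with 3 libraries per genotype. *HDT1* (AT3G44750) encodes a histone deacetylase of the plant HD2 type, and the *hdt1* plants carry a T-DNA insertion in it. The study used 2 such lines, and the labels do not say which was sequenced. By the labels, stems of both genotypes were taken 35 days after flowering from untreated greenhouse plants kept at 20 °C with 16 h of light. The study's methods give another temperature range and a shorter light period. The series text says that replicates were not included. The labels number 3 samples per genotype, and the study's methods state that stems were taken in triplicate. The p-values below therefore speak of the spread among these 6 libraries, which may be technical. Sequencing depth was similar, with 40505052 to 45230842 fragments per library as the scale of FPKM.

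The targeted gene was lower in every *hdt1* library. *HDT1* had 4.97, 19.8 and 20.5 FPKM in *hdt1* libraries 1, 2 and 4, against 53.3, 65.3 and 56.9 FPKM in wild-type libraries 1, 2 and 4. Library 1 stood apart in both genotypes. Log2 values of libraries 2 and 4 correlated at 0.995 across genes within each genotype, those of the 2 libraries numbered 1 at 0.977 between genotypes, and every other pair at 0.853 to 0.906. The labels give no name to this split, so FPKM values are given by library number, and the family's differences also for library 1 and for libraries 2 and 4. The 6 seed markers summed to 0.37 to 11.4 FPKM in *hdt1* libraries and 0 to 171 FPKM in wild-type libraries. *SESA4*, a seed storage albumin gene, was at 0 in all 3 *hdt1* libraries, against 0, 90.1 and 85.4 FPKM in the wild type. *CRA1*, *CRU3*, *OLEO1* and *EM1* of this list were also lower in *hdt1* in libraries 2 and 4. *SESA1* ran the other way, with 0.22, 8.96 and 7.50 FPKM in *hdt1* libraries 1, 2 and 4. Its wild-type values were 0, 5.08 and 4.67 FPKM. Their part in the results below was not tested.

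What the members share beyond the rule is shown first by the bases that encode the distal side of the haem pocket. There a conserved arginine and, after 3 further residues, a conserved histidine act on hydrogen peroxide. Their codons are in capitals in the following coding sequences of the members the results turn on, read from the RefSeq annotation of the assembly TAIR10.1.

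PRXR1 (AT4G21960), chr4:11648094-11648114, minus strand: CGTaacatcttcCATgactgc
AT2G37130, chr2:15599612-15599632, minus strand: CGTaatctcttcCATgactgt
PRX34 (AT3G49120), chr3:18208020-18208040, plus strand: CGTcttcacttcCACgactgc
PRX33 (AT3G49110), chr3:18200917-18200937, plus strand: CGTcttcacttcCATgactgc
PRX71 (AT5G64120), chr5:25660716-25660736, minus strand: AGAatgcatttcCACgactgt
PRX53 (AT5G06720), chr5:2078636-2078656, minus strand: CGCcttcattttCATgactgt
AT5G06730, chr5:2081397-2081417, minus strand: CGCcttcattttCACgactgt
AT5G51890, chr5:21092132-21092152, minus strand: AGAatgttcttcCACgattgc
PER64 (AT5G42180), chr5:16852876-16852896, plus strand: AGGatgcatttcCACgactgt

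All of these are exonic coding sequence. The full pattern of arginine, any 2 residues, phenylalanine, histidine, aspartate and cysteine was found in 58 of the 60 coding sequences and not in those of AT2G39040 and AT5G39580. Coding sequences of the 60 members ran from 315 to 404 codons, and the 1770 pairs had a median identity of 62.6% (range 56.0% to 93.8%).

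Only 4 pairs reached 90% identity, and each of them lay side by side on its chromosome: AT4G08770 and AT4G08780 at 93.8%, AT4G37520 and AT4G37530 at 92.4%, PRX33 and PRX34 at 90.7%, and AT2G38380 and AT2G38390 at 90.6%. Reads from such pairs could be assigned to either copy, so their values are uncertain to that extent. The longest run without a difference was 111 bases between PRX33 and PRX34 and 101 bases between AT4G08770 and AT4G08780. The difference is shown by a 60-base stretch of coding sequence that starts at the arginine codon, with exons joined and differing bases in capitals.

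PRX33 (AT3G49110), coding positions 205 to 264: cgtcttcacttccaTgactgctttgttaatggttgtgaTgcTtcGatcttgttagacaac
PRX34 (AT3G49120), coding positions 202 to 261: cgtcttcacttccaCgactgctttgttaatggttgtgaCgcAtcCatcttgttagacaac

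Between PRX33 and PRX34 4 of the 60 bases differed. The matching stretches of PRX53 and AT5G06730, neighbours on chromosome 5 with 85.9% identity over the coding sequence, differed at 6 bases, and those of AT4G08770 and AT4G08780 at 0 bases.

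A few genes made up most of the family sum, and its make-up differed between genotypes in libraries 2 and 4. All 60 members summed to 3597, 2318 and 2266 FPKM in *hdt1* libraries 1, 2 and 4, against 3290, 2424 and 2502 FPKM in wild-type libraries 1, 2 and 4, so the sums of the genotypes overlapped. PRXR1, AT2G37130 and AT4G37520, the 3 members with the highest mean, made up 87.3%, 55.3% and 54.9% of the sum in *hdt1* libraries 1, 2 and 4 and 87.5%, 92.2% and 92.0% in the wild-type libraries of the same numbers. The other 57 members together had 455, 1035 and 1022 FPKM in *hdt1* and 410, 190 and 200.2 FPKM in the wild type. This remainder was thus much larger in *hdt1* libraries 2 and 4, and close to the wild type in library 1. In bulk stem RNA, more cells of a type and more RNA per cell cannot be told apart.

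**Figure D1:**
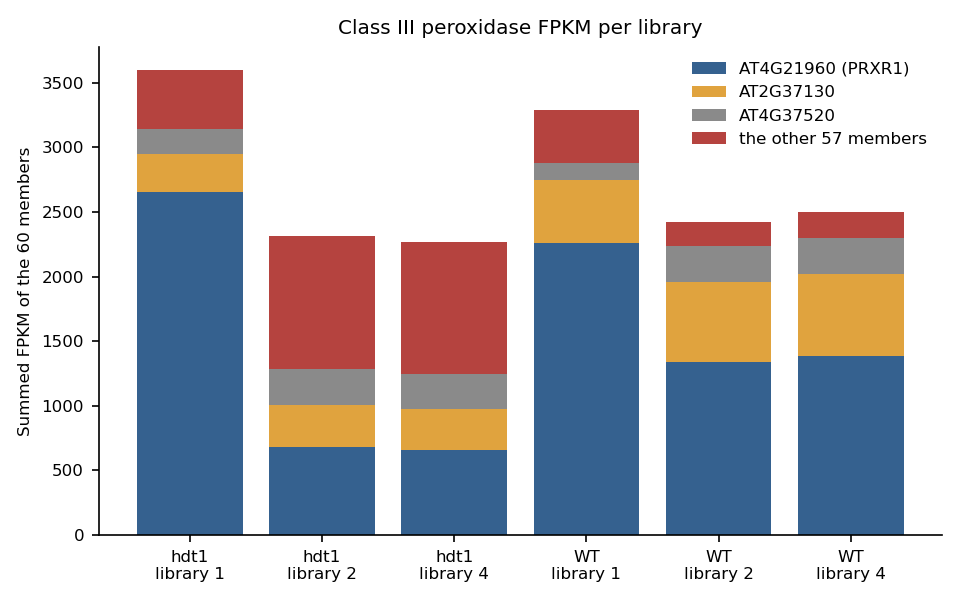
Summed FPKM of the 60 class III peroxidase genes (y axis) in each *hdt1* and wild-type (WT) library, split into the 3 most abundant members and the other 57. The other 57 members had 1035 and 1022 FPKM in *hdt1* libraries 2 and 4, against 190 and 200.2 FPKM in wild-type libraries 2 and 4.

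The genotype difference of each member was taken from a limma fit of log2(FPKM + 1) over 17906 genes, 27 of them members, that reached 1 FPKM in 3 or more libraries. Fold changes below are on this log2(FPKM + 1) scale, *hdt1* minus wild type, which understates the change of low genes. No gene passed an adjusted p of 0.05 (0% of those tested), so 0 members were called, and their smallest adjusted p was 0.242. In test data with known changes and a library split shared by the genotypes, this fit found 14.3% of 2-fold and 61.5% of 4-fold changes. A fit with a term for library 1 against libraries 2 and 4 found 85.7% and 98.2% there. The 0 calls therefore do not show that the members were unchanged. In the test data the split was equal in both genotypes, and the noise was that of libraries 2 and 4. The interaction fit described below called 43.8% of all genes tested, so these recovery rates need not hold for the real data. Limma's voom on recovered reads also called 0 genes. At an unadjusted p under 0.05, 13 of 27 members were higher in *hdt1* and 1 was lower. Of all genes tested 7.78% were higher and 5.96% lower by the same measure (1393 and 1068 genes, or 1601 and 756 with median-ratio scaling). The median fold change was 0.81 over the members, against -0.08 over all genes tested. PER4 (AT1G14540) and AT2G34060 passed the filter through *hdt1* libraries alone, so these counts over the 27 are a description. With a block by library number, 15 members were higher and 1 lower at an unadjusted p under 0.05, against 12.4% and 12.6% of all genes, and again 0 were called. The calls depended on library 1: without *hdt1* library 1 10 members were called, 9 of them higher, where 11.1% of all genes were called, and without wild-type library 1 4 were called, 3 of them higher, where 6.34% were. Leaving out any other library gave 0 calls.

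In 11 of the 27 members tested all 3 *hdt1* values lay above all 3 wild-type values, a pattern met by 8.50% of all genes tested, and in 1 member they lay below, which held for 10.9% of all genes. The 11 include PER4 and AT2G34060, whose gap was fixed by the filter, because only their 3 *hdt1* values reached 1 FPKM. Of the 9 reported members outside the test, 8 reached 1 FPKM in *hdt1* libraries 2 and 4 alone and AT1G49570 did so in wild-type libraries alone, so the rule that reports them favours a gap and they are not counted here. A single gene in 3 against 3 libraries cannot reach an exact two-sided permutation p under 0.1.

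**Figure D2:**
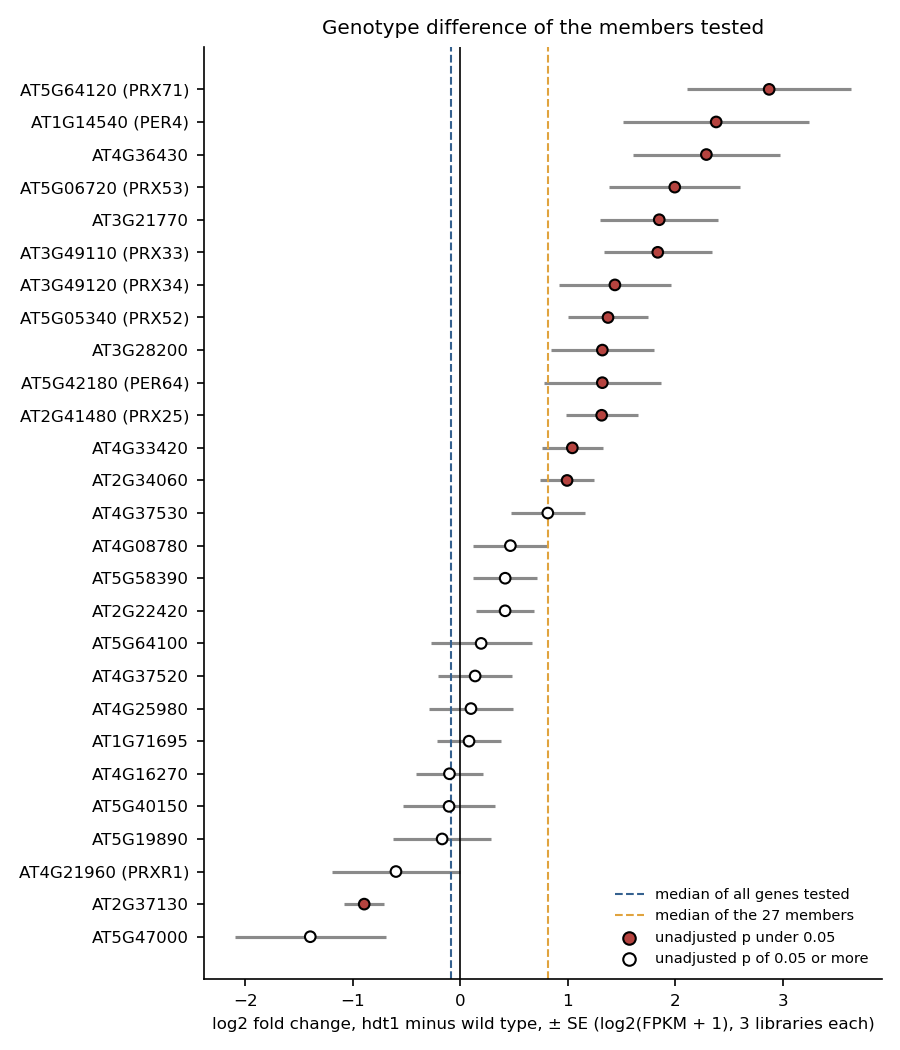
Log2 fold change (x axis, *hdt1* minus wild type on the log2(FPKM + 1) scale, bars are SE) of the 27 members tested, with members at an unadjusted p under 0.05 filled. Filled members number 13 to the right of 0 and 1 to the left, and the dashed lines mark the medians of 0.81 for members and -0.08 for all genes tested.

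Adding the library set (library 1 against libraries 2 and 4) as a term to the fit, 2 members were called higher in *hdt1*, against 3.82% of all genes tested, and 1 was called lower, against 2.52%. The 2 higher members were PER64 (adjusted p = 0.0297) and AT3G21770 (adjusted p = 0.0436), and the lower member was AT2G37130 (adjusted p = 0.0234). With libraries 2 and 4 averaged in the same design, so that these near-identical libraries count once, 0 members were called, and their smallest adjusted p was 0.798. That limma fit called 0% of all genes tested, with a smallest adjusted p of 0.587. Averaging left so few values per gene that it could hardly call any gene, so it does not decide on the calls above. AT3G21770, singled out after its values were seen, had 4.16, 18.5 and 19.4 FPKM in *hdt1* libraries 1, 2 and 4, against 1.90, 2.65 and 3.11 FPKM in the wild type. All 3 *hdt1* values of AT3G21770 lay above the wild type.

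The 9 lignin-linked members, chosen for roles described in lignin formation, had a higher sum in *hdt1* than in the wild type at each library number. Summed over the 9, they had 152, 429 and 429 FPKM in *hdt1* libraries 1, 2 and 4, against 113, 61.7 and 61.1 FPKM in the wild type. Within these sums PRX71 alone had 56.0, 249 and 261 FPKM in *hdt1* and 47.9, 13.3 and 12.5 FPKM in the wild type. Of the 7 tested, 5 had all *hdt1* values above all wild-type values, which held for 8.50% of all genes tested, and 1 of these 5, PER4, passed the filter through *hdt1* libraries alone. Xylem marker transcripts were also higher in *hdt1*. At an unadjusted p under 0.05, 8 of 11 xylem markers tested were higher, against 7.78% of all genes tested. On that list the 13 summed to 213, 202 and 209.7 FPKM in *hdt1* libraries 1, 2 and 4. The wild-type sums were 101, 46.4 and 47.6 FPKM, with none of the 13 at 0 throughout. Unlike the lignin-linked sums, the xylem sums were alike in all *hdt1* libraries. Of 4 phloem markers tested 2 were higher by the same measure, and the list summed to 202, 181 and 179 FPKM in *hdt1* libraries 1, 2 and 4, against 142, 105 and 106 FPKM in the wild type. None of 3 cambium, 3 epidermis and 5 photosynthesis markers tested was past that limit. Their part in the peroxidase values was not tested.

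PRX71 (AT5G64120), a wall-bound peroxidase described in lignification and induced by hypo-osmolarity, had the largest fold change of the members tested. Its FPKM values were 56.0, 249 and 261 in *hdt1* libraries 1, 2 and 4, against 47.9, 13.3 and 12.5 in the wild type. The groups did not overlap, but library 1 differed little while libraries 2 and 4 differed by 4.20 on the log2 scale. Over all 3 libraries the fold change was 2.87 ± 0.76 (SE, adjusted p = 0.287).

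PER4 (AT1G14540), the next largest, had 1.09, 17.7 and 18.6 FPKM in *hdt1* libraries 1, 2 and 4, against 0.60, 0.89 and 0.79 FPKM in the wild type. Its groups did not overlap either, with a fold change of 2.38 ± 0.87 (SE, adjusted p = 0.323). Its neighbour AT1G14550, 73.6% identical in coding sequence, was silent.

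PRX25 (AT2G41480), a cationic wall-bound peroxidase linked to lignin, had 27.2, 64.5 and 57.9 FPKM in *hdt1* libraries 1, 2 and 4, against 20.0, 16.6 and 18.1 FPKM in the wild type. AT4G33420, described in vessel formation, had 30.7, 59.96 and 59.2 FPKM in *hdt1* against 23.4, 23.3 and 21.5 FPKM in the wild type. Both had wild-type values within a narrow range and *hdt1* values all above it, with fold changes of 1.32 ± 0.34 and 1.04 ± 0.28 (SE, adjusted p = 0.282 and 0.287). AT4G33420 shares 78 bases with a gene on the opposite strand, and no source used here states the strand setting of the counting.

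PRX52 (AT5G05340), which takes part in lignin formation in interfascicular fibres, had 6.82, 8.73 and 6.17 FPKM in *hdt1* libraries 1, 2 and 4, against 4.46, 1.17 and 1.64 FPKM in the wild type. Here the *hdt1* libraries were alike and the wild-type libraries varied, for a fold change of 1.37 ± 0.37 (SE, adjusted p = 0.287). In the 250 bases before its annotated start lies 1 AC element, the type of motif bound by MYB factors of lignin genes.

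PRX52 element (capitals) with 10 bases on each side, within chr5:1580876-1581125, minus strand: ttttcaacgcGTTAGGTcacctatctt
PRX53 element (capitals) with 10 bases on each side, within chr5:2079006-2079255, minus strand: aacttcatttACCAACCgcgtgggagg

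The first motif searched was ACCTACC, another was ACCAACC and the last was ACCTAAC, each on both strands, and none contains another. They were found before 5 of 60 members (8.33%) and before 6.12% of 27443 protein-coding genes. Among the 9 lignin-linked members the PRX52 start was the only one with a match, which describes letters and not a site of binding.

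PER64 (AT5G42180), the peroxidase of the lignified Casparian strip in roots, had 20.6, 9.47 and 9.74 FPKM in *hdt1* libraries 1, 2 and 4, against 10.7, 2.81 and 2.47 FPKM in the wild type. Library 1 was the higher one in both genotypes, and within each library number *hdt1* exceeded the wild type. The overlap came from the wild-type library 1, and the fold change was 1.32 ± 0.54 (SE, adjusted p = 0.363 without the library set term). AT2G22420, described in lignified stem tissue, had 8.97, 5.68 and 4.68 FPKM in *hdt1* against 5.70, 3.65 and 4.10 FPKM in the wild type, which overlapped.

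AT5G51890, described in the lignification of tracheary elements, reached 1 FPKM in 2 libraries only. It had 0.46, 13.5 and 12.3 FPKM in *hdt1* libraries 1, 2 and 4, against 0.25, 0.02 and 0.02 FPKM in the wild type. The recovered reads behind these were 25, 693 and 632 in *hdt1* and 13, 1 and 1 in the wild type, so the wild-type libraries 2 and 4 rest on single reads. AT5G51890 shares 118 bases with a gene on the opposite strand. PRX72 (AT5G66390), described in lignin synthesis, was silent with 0.04, 0.12 and 0.06 FPKM in *hdt1* and 0.02, 0 and 0.02 FPKM in the wild type.

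**Figure D3:**
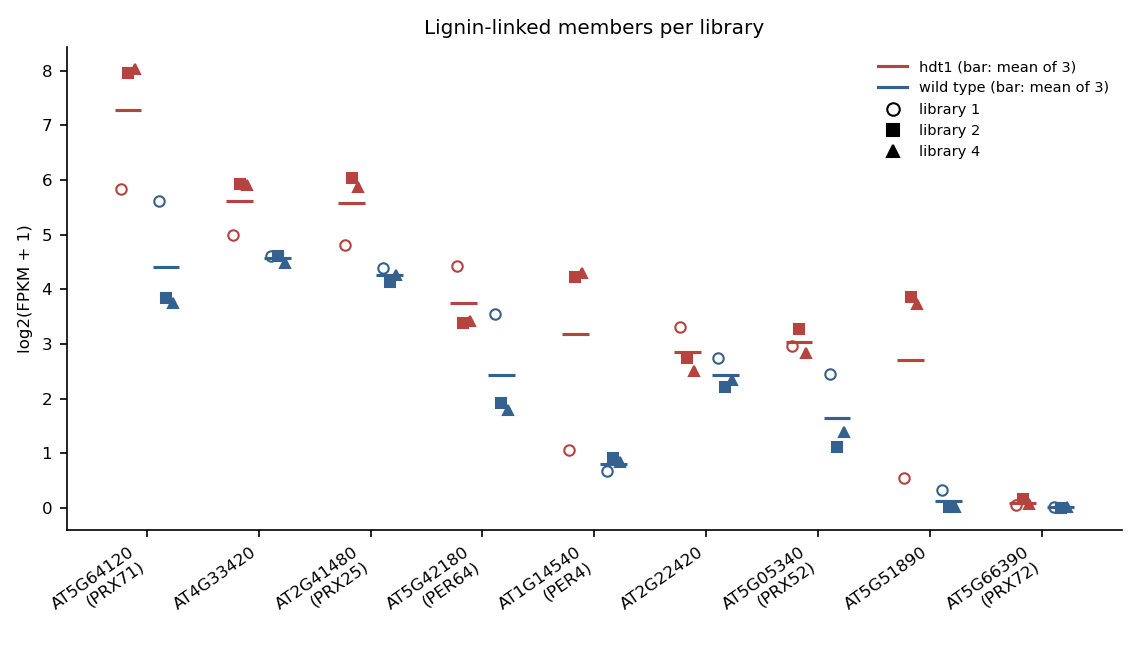
Log2(FPKM + 1) of the 9 lignin-linked members (x axis) in each library, *hdt1* to the left of wild type, with horizontal bars for the mean of 3 libraries and open circles for library 1. PRX71, PER4 and AT5G51890 show the widest gap in libraries 2 and 4, where PRX71 had 249 and 261 FPKM in *hdt1* against 13.3 and 12.5 FPKM in the wild type.

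PRX33 (AT3G49110) and PRX34 (AT3G49120), wall peroxidases that support elongation and the oxidative burst of defence, lie 4385 bases apart. PRX34 had 208, 276 and 258 FPKM in *hdt1* libraries 1, 2 and 4, against 211, 54.9 and 62.1 FPKM in the wild type. PRX33 had 5.99, 12.5 and 11.4 FPKM in *hdt1* against 5.00, 1.30 and 0.85 FPKM in the wild type. PRX34 overlapped because wild-type library 1 lay above *hdt1* library 1, and PRX33 did not overlap. Their fold changes were 1.44 ± 0.52 and 1.84 ± 0.50 (SE, adjusted p = 0.322 and 0.287), and reads of one could have been counted for the other. AT3G32980, 84.4% identical to PRX34, was low in all libraries, with 0.95, 1.13 and 1.55 FPKM in *hdt1* against 0.96, 0.67 and 0.65 FPKM in the wild type.

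Defence markers did not follow one direction. At an unadjusted p under 0.05, 1 of 4 tested, *PAD3* of camalexin synthesis, was higher and 0 were lower. Over all genes tested 7.78% were higher and 5.96% lower. The 6 defence markers on the list summed to 65.6, 78.1 and 85.05 FPKM in *hdt1* libraries 1, 2 and 4. Their wild-type sums were 107, 63.2 and 60.4 FPKM. Of 4 senescence markers tested 1 was higher, and their sums were 564, 982 and 1039.5 FPKM in *hdt1* libraries 1, 2 and 4, against 567, 602 and 571 FPKM in the wild type. Both lists had a higher sum in *hdt1* in libraries 2 and 4 and not in library 1. Most of that defence sum was *PR2*, with 53.8 and 56.6 FPKM in *hdt1* libraries 2 and 4, against 21.5 and 19.0 FPKM. *PR5* was lower there, at 8.11 and 9.59 against 20.3 and 19.2 FPKM, as was *PAD4*, at 7.41 and 7.63 against 20.7 and 21.6 FPKM. *ORE1* of the senescence list was lower too, at 2.63 and 2.94 against 6.20 and 6.36 FPKM. The other markers of both lists were higher in *hdt1* in these libraries.

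PRX53 (AT5G06720), known from wound responses and flower development, and its neighbour AT5G06730 were both high in *hdt1* libraries 2 and 4. PRX53 had 15.7, 77.7 and 72.4 FPKM in *hdt1* libraries 1, 2 and 4, against 13.1, 9.24 and 9.49 FPKM in the wild type, with a fold change of 1.996 ± 0.61 (SE, adjusted p = 0.298). AT5G06730 had 0.70, 44.5 and 43.1 FPKM in *hdt1* against 0.42, 0.81 and 0.66 FPKM in the wild type. In library 1 AT5G06730 was near its wild-type level, and its *hdt1* value there lay inside the wild-type range, so the groups overlapped.

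Prx37 (AT4G08770), a peroxidase of vascular bundles whose overexpression dwarfs plants, had the same shape. It had 0.54, 30.3 and 27.5 FPKM in *hdt1* libraries 1, 2 and 4, against 0.29, 0.97 and 0.38 FPKM in the wild type. Its near-identical neighbour AT4G08780 ranged only from 0.62 to 1.74 FPKM in *hdt1* and from 0.31 to 1.45 FPKM in the wild type, although reads could be split between the copies.

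The 5 members known from root hairs were low in the wild type, and the root hair regulators *RHD6* and *RSL4* were at 0 in all 6 libraries. PER62 (AT5G39580) stood out in *hdt1*, with 0.23, 12.3 and 13.8 FPKM in libraries 1, 2 and 4, against 0.06, 0.02 and 0.12 FPKM in the wild type. Its recovered reads numbered 13, 652 and 726 in *hdt1* and 3, 1 and 6 in the wild type. The study listed PER62 as upregulated in *hdt1* under lignin synthesis, by another test than the one used here. AT5G64100 stayed between 0.50 and 1.22 FPKM in *hdt1* and had 2.48, 0.21 and 0.16 FPKM in wild-type libraries 1, 2 and 4, so it was highest in a wild-type library. AT4G26010, RHS18 (AT5G22410) and RHS19 (AT5G67400) were silent.

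Among root markers, *PYK10* and *CASP1* were also high in *hdt1* libraries 2 and 4. *PYK10*, a beta-glucosidase of roots, had 0.34, 28.0 and 26.5 FPKM in *hdt1* libraries 1, 2 and 4, against 0.13, 0.79 and 0.93 FPKM in the wild type, and *CASP1* of the Casparian strip had 0, 1.54 and 1.38 FPKM in *hdt1* against 0, 0.16 and 0.03 FPKM in the wild type. *ESB1* ran the other way at low level, with 0.26, 0.09 and 0.06 FPKM in *hdt1* against 0.35, 0.16 and 0.25 FPKM in the wild type. The 8 root markers summed to 0.62, 29.7 and 28.1 FPKM in *hdt1* libraries 1, 2 and 4, against 0.48, 1.11 and 1.22 FPKM in the wild type, mostly from *PYK10*. None of the 8 passed the filter of 3 libraries, 6 were under 1 FPKM throughout, and their part in the peroxidase values was not tested.

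Of the 3 members known from anthers or seeds, AT4G16270 was the only one reported. It had 0.43, 1.096 and 0.92 FPKM in *hdt1* libraries 1, 2 and 4, against 0.32, 1.07 and 1.59 FPKM in the wild type, which overlapped. AT4G16270 shares 869 bases with a gene on the opposite strand, so reads of both may be mixed. AT1G44970 and PER36 (AT3G50990), a peroxidase of seed coat mucilage release, were silent, also in the wild-type libraries that held seed storage transcripts.

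PRXR1 (AT4G21960) was the most abundant member in every library. It had 2656, 684 and 661 FPKM in *hdt1* libraries 1, 2 and 4, against 2256, 1336 and 1385 FPKM in the wild type. Library 1 was the highest in both genotypes, and *hdt1* was higher than the wild type there and lower in libraries 2 and 4. The fold change over all was -0.60 ± 0.59 (SE, adjusted p = 0.668).

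AT2G37130, the second most abundant, was the 1 member tested with all *hdt1* values below the wild type. It had 295, 322 and 314 FPKM in *hdt1* libraries 1, 2 and 4, against 489.7, 618 and 635 FPKM in the wild type. The difference was alike in library 1 and in libraries 2 and 4, at -0.73 and -0.98, and the fold change of -0.89 ± 0.19 had the smallest SE of the members tested (adjusted p = 0.242).

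AT4G37520 had 191, 275 and 269 FPKM in *hdt1* libraries 1, 2 and 4, against 134, 279.9 and 283 FPKM in the wild type, which overlapped. Its near-identical neighbour AT4G37530 had 14.3, 35.4 and 31.5 FPKM in *hdt1* against 13.3, 13.0 and 15.5 FPKM in the wild type. In AT4G37530 only *hdt1* libraries 2 and 4 stood out (adjusted p = 0.372). AT3G28200 had 16.1, 48.5 and 61.2 FPKM in *hdt1* against 14.9, 13.9 and 13.2 FPKM in the wild type, without overlap (fold change 1.32 ± 0.48, SE, adjusted p = 0.322).

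AT5G47000 ran the other way. It had 1.89, 0.19 and 0.41 FPKM in *hdt1* libraries 1, 2 and 4, against 0.54, 6.75 and 6.36 FPKM in the wild type. So *hdt1* was the higher genotype in library 1 and by far the lower one in libraries 2 and 4, and the fold change of -1.40 ± 0.70 was not called (SE, adjusted p = 0.429). The 5 anther markers, of which 2 were tested and 2 were at 0 in all libraries, summed to 18.7, 23.9 and 23.4 FPKM in *hdt1* libraries 1, 2 and 4, against 20.3, 56.9 and 56.3 FPKM in the wild type, and their part in AT5G47000 was not tested. AT1G49570 had 0.46, 0.09 and 0.23 FPKM in *hdt1* libraries 1, 2 and 4 and 3.32, 1.30 and 0.78 FPKM in the wild type, where all values were above those of *hdt1*.

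AT5G19890 had 1.40, 2.46 and 3.09 FPKM in *hdt1* libraries 1, 2 and 4, against 6.16, 1.38 and 1.84 FPKM in the wild type. AT5G40150 had 6.52, 1.98 and 2.47 FPKM in *hdt1* against 5.73, 2.96 and 2.62 FPKM in the wild type. Both overlapped between genotypes, and in both the highest value was in a library numbered 1.

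AT2G34060 was low but did not overlap, with 1.16, 1.79 and 1.93 FPKM in *hdt1* libraries 1, 2 and 4, against 0.67, 0.04 and 0.29 FPKM in the wild type (fold change 0.99 ± 0.25, SE, adjusted p = 0.280). AT2G38380 had 0.45, 3.99 and 3.83 FPKM in *hdt1* against 0.61, 0.79 and 0.52 FPKM in the wild type. AT5G19880, neighbour of AT5G19890, had 0.19, 1.75 and 1.53 FPKM in *hdt1* against 0.73, 0.02 and 0.10 FPKM in the wild type. Both of these were higher in *hdt1* libraries 2 and 4 and lower in *hdt1* library 1. AT1G68850 had 0.56, 1.09 and 1.32 FPKM in *hdt1* against 0.48, 0.53 and 0.29 FPKM in the wild type, a narrow gap without overlap.

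The remaining reported members are given by range. AT4G36430 ran from 1.62 to 13.1 FPKM in *hdt1* and from 0.22 to 1.22 FPKM in the wild type, without overlap. AT5G58390, AT4G25980 and AT1G71695 overlapped, with AT5G58390 at 6.90 to 15.8 FPKM in *hdt1* and 6.52 to 7.87 FPKM in the wild type. AT4G25980 ran from 1.96 to 6.07 FPKM in *hdt1* and from 2.49 to 5.07 FPKM in the wild type, and AT1G71695 from 2.18 to 3.48 FPKM in *hdt1* and from 1.36 to 3.39 FPKM in the wild type.

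Of the 24 silent members, 4 were at 0 in all 6 libraries: AT2G39040, AT3G49960, AT4G33870 and RHS18. AT5G64110 was the only silent member to reach 1 FPKM in any library, at 1.09 FPKM in *hdt1* library 2. RCI3 (AT1G05260), a cold-inducible cationic peroxidase, had 0.37 to 0.75 FPKM in *hdt1* and 0.10 to 0.47 FPKM in the wild type. Together the 24 had 1.49, 3.87 and 4.22 FPKM in *hdt1* libraries 1, 2 and 4, against 0.996, 1.25 and 1.67 FPKM in the wild type.

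**Figure D4:**
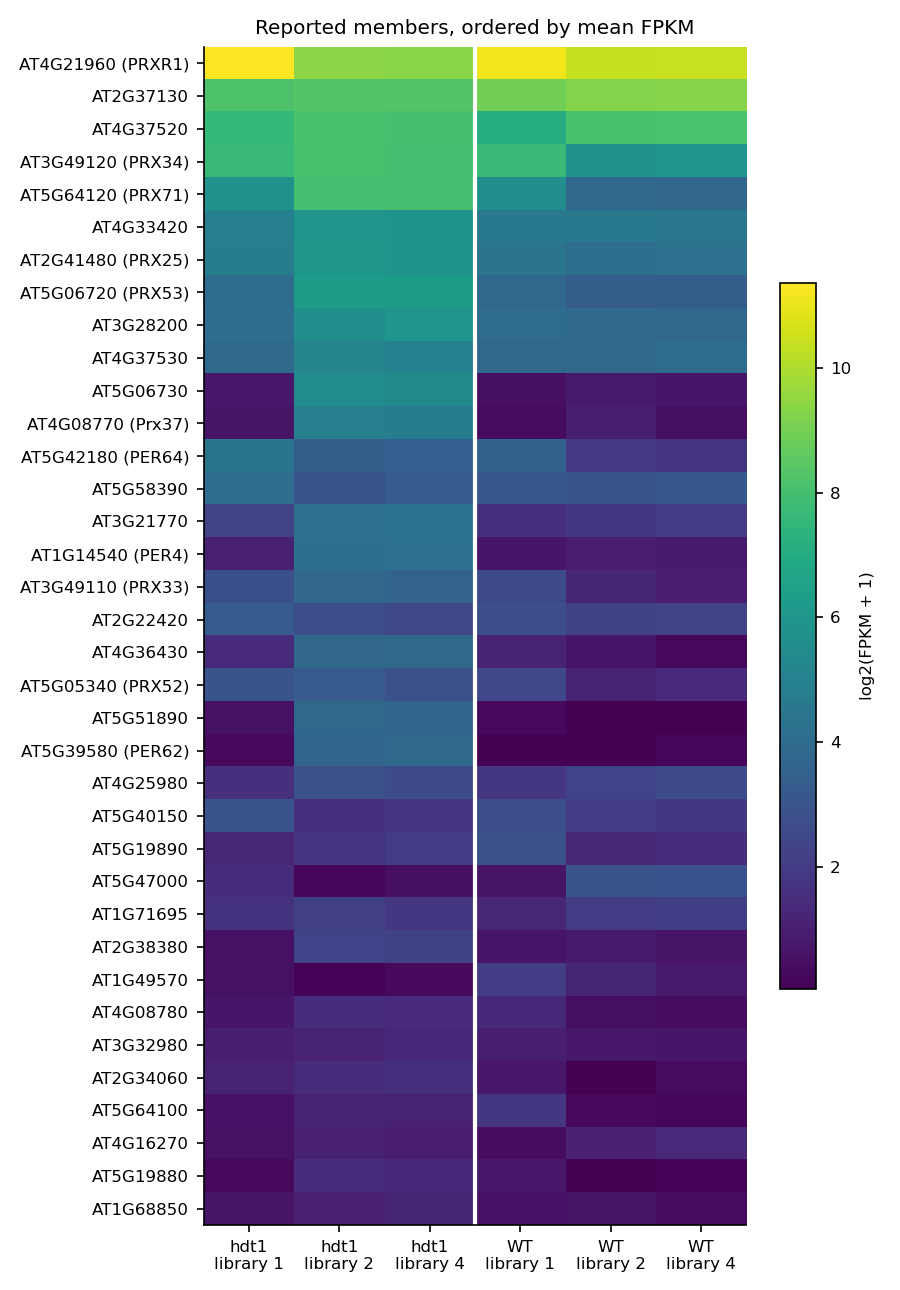
Log2(FPKM + 1) (colour scale) of the 36 reported members (rows, ordered by mean FPKM) in each library (columns, *hdt1* left of the white line and wild type right). *hdt1* libraries 2 and 4 are the brightest columns for many members, among them AT5G06730 at 44.5 and 43.1 FPKM, while *hdt1* library 1 resembles wild-type library 1.

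The genotype difference of many members was larger in libraries 2 and 4 than in library 1. Of the 27 members tested, 0 were higher in *hdt1* by at least 1 on the log2 scale in library 1, against 2.22% of all genes tested, and 14 were in libraries 2 and 4, against 8.87%. Those lower by at least 1 numbered 2 in library 1, against 0.726% of all genes, and 2 in libraries 2 and 4, against 3.69%. The 9 reported members outside the test are left out of these counts, because most entered through *hdt1* libraries 2 and 4. PER4 and AT2G34060, which passed the filter through *hdt1* libraries alone, are among the 14 and among the 27 below. Over the 27 members the median difference was 0.24 in library 1 and 1.18 in libraries 2 and 4, against -0.03 and -0.11 over all genes tested. The direction was higher in *hdt1* in both sets for 15 of 27 members, against 22.0% of all genes, and lower in both for 1, against 34.2%.

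Within libraries 2 and 4 alone 18 of 27 members were called higher in *hdt1*, where 27.4% of all genes tested were, and 3 were called lower, where 38.6% of all genes were. The 3 lower ones were PRXR1, AT2G37130 and AT5G47000. These libraries were nearly alike within a genotype, so this test measures a small spread.

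An interaction fit asked whether the genotype difference itself differed between library 1 and libraries 2 and 4. It called 17 members with a more positive difference in libraries 2 and 4, against 20.7% of all genes tested, and 4 with a more positive difference in library 1, against 23.1%. PRX71 differed by 0.22 in library 1 and by 4.20 in libraries 2 and 4 (adjusted p = 1.66e-06), and AT5G47000 by 0.91 and -2.55 (adjusted p = 7.27e-05). AT2G37130 was not called by it (adjusted p = 0.0644). Each genotype has 1 library numbered 1, and its spread was taken from libraries 2 and 4, so the set and the single library cannot be told apart.

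**Figure D5:**
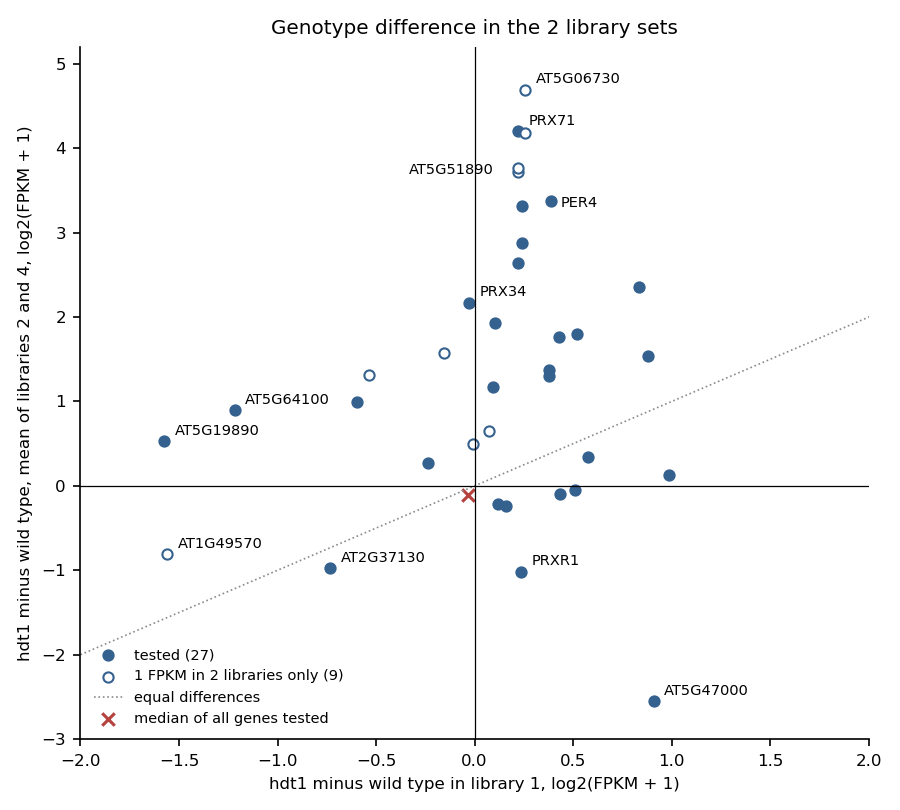
Difference in log2(FPKM + 1), *hdt1* minus wild type, in library 1 (x axis) and as the mean of libraries 2 and 4 (y axis) for the 36 reported members, with a dotted line of equal differences and a cross for the median of all genes tested. PRX71, at 0.22 and 4.20, lies far above the line, AT5G47000, at 0.91 and -2.55, lies far below it, and AT2G37130, at -0.73 and -0.98, lies close to it.

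Genes of the surrounding pathway were read from the same fit. Of 16 monolignol synthesis genes, all tested, 6 were higher in *hdt1* at an unadjusted p under 0.05 and 0 were lower. Over all genes tested 7.78% were higher and 5.96% lower by that measure. The median fold change over all genes tested was -0.08, and that of the 16 was 0.68. Within library 1 that median was 0.46, and within libraries 2 and 4 it was 0.83. *PAL1*, the entry enzyme of the pathway, had 134, 200.3 and 204 FPKM in *hdt1* libraries 1, 2 and 4, against 55.0, 56.97 and 55.3 FPKM in the wild type. The genotypes of *PAL1* did not overlap, with a fold change of 1.64 ± 0.21 (SE, adjusted p = 0.138). *PAL4*, *C4H* and *C3H1* were the next by p, with fold changes of 1.12, 1.57 and 0.87.

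Of 17 laccases 5 were tested. At an unadjusted p under 0.05, 3 of them were higher in *hdt1* and 0 were lower, against 7.78% and 5.96% of all genes tested. The 5 had a median fold change of 1.67, against -0.08 over all genes tested. Within library 1 their median was 1.001, and within libraries 2 and 4 it was 2.01. *LAC4*, a main lignin laccase of the stem, had 76.3, 85.2 and 80.3 FPKM in *hdt1* libraries 1, 2 and 4, against 22.7, 10.8 and 10.3 FPKM in the wild type. *LAC4* was alike in the 3 *hdt1* libraries, and its fold change was 2.47 ± 0.31 (SE, adjusted p = 0.138). *LAC17* and *LAC2* had fold changes of 1.67 and 2.04.

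Genes that make or remove peroxide were mixed. The limit used for them, an unadjusted p under 0.05, was passed by 7.78% of all genes tested as higher and 5.96% as lower. Of 10 NADPH oxidases 2 were tested, and *RBOHF* was higher at an unadjusted p under 0.05 with 8.85, 27.8 and 31.3 FPKM in *hdt1* libraries 1, 2 and 4, against 4.29, 7.58 and 6.20 FPKM in the wild type. *RBOHD* had a fold change of 0.37 and was not past that limit. Of 7 superoxide dismutases, all tested, *FSD1* was higher (1.04) and *CSD2* lower (-0.62) at that limit, and of 9 catalases and ascorbate peroxidases tested, out of 10 listed, 0 were past it in either direction.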

How the data were processed

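The authors deposited one table of FPKM values per gene, with columns for 3 *hdt1* and 3 wild-type stem libraries. HTSeq 0.6.1, TopHat2 2.0.12 and Bowtie2 2.2.3 are credited to the processing notes of the submitters, with no roles. Neither the genome build nor the strand setting is stated by any source used here. The study's methods call the unit RPKM. Columns are numbered 1, 2 and 4 and labels 1 to 3, so each column was tied to its genotype only, and the column numbers name the libraries here.

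A gene entered the test where 3 or more libraries reached 1 FPKM. Values of log2(FPKM + 1) went into limma 3.58.1 (R 4.3.3) with a mean-variance trend, p was adjusted by Benjamini-Hochberg across 17906 genes, and an adjusted p below 0.05 counts as a call. No further scaling was applied. The study's own test for differential expression was not repeated. Whole reads were recovered from the FPKM steps for all 25374 features above 0, within a relative tolerance of 1e-10, and the fits were tested on simulated data. A common factor had to be chosen for 1035 of these features. Their sums were at least 99.6% of the scale of FPKM, and precision is limited by library number rather than by counting for all but the lowest members.

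Deviations from the genotype means of same-numbered libraries correlated at 0.56, 0.53 and 0.46, which is over the limit of 0.1 set for pairing, but libraries 2 and 4 of opposite genotypes also correlated at 0.54 and 0.51. Within a genotype libraries 2 and 4 had a median chi-square per gene of 2.38 in *hdt1* and 2.22 in the wild type, where counting alone gives 0.455, so they were kept as separate libraries.

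The rule for named members gave all 6 values for the 12 members with the highest mean, the 6 with the smallest p in each direction, the lignin-linked members and those at 1 FPKM in 2 libraries only. Of each pathway list up to 4 genes with the smallest p were named. Members, lists and the split by library number were chosen with earlier results of these data known. Numbered PRX and PER names are those of the RefSeq annotation or the study, and other members are given by identifier. Coordinates and coding sequences are from TAIR10.1, aligned globally with Biopython 1.88. Python 3.11.15, NumPy 2.4.6, pandas 2.3.3 and matplotlib 3.10.9 were used. The alternatives tried were another pseudocount, 3 other filters, 2 scalings, robust moderation, a replicate block, a library set term, libraries 2 and 4 averaged or alone, voom on recovered reads and each library left out.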

Additional observations from a re-analysis of the deposited data

How the results depend on the processing

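The number of called genes, 0 in all, with 0 members and 0 of the pathway genes, depended on how library 1 was handled. With a library set term 1135 genes (6.34% of those tested), 3 members and 12 pathway genes were called. With voom on recovered reads and that term the counts were 1747 (9.76% of genes tested), 6 and 17. With libraries 2 and 4 alone they were 11809 (65.9%), 21 and 32. Leaving out each library in turn gave 0 to 1994 genes, 0 to 10 members and 0 to 8 pathway genes, and only leaving out a library numbered 1 gave any. Under every other alternative the 3 counts were 0. The replicate block gave 0 calls as well, with 16 members at an unadjusted p under 0.05 in place of 14 and 4476 genes in place of 2461. The number of members at that limit was 7 with libraries 2 and 4 averaged and a library set term, and 9 to 14 with each library left out. The members' median fold change ranged from 0.66 to 0.98 with each library left out.

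Of the 27 members tested, 20 kept the sign of their fold change under every alternative run. No alternative used library 1 alone, so a kept sign does not mean one direction in both library sets. Of these 20, PRXR1 differed by 0.24 in library 1 and -1.02 in libraries 2 and 4, and AT5G47000 by 0.91 and -2.55. AT4G08780 (-0.60 and 0.999) and PRX34 (-0.026 and 2.17) also changed direction between the sets. The other 7, with small fold changes over all libraries, did not keep their sign. In each of these 7 the small value joined differences of opposite sign in library 1 and in libraries 2 and 4. AT5G19890 differed by -1.57 in library 1 and 0.53 in libraries 2 and 4, and AT5G64100 by -1.22 and 0.90. The differences were smaller for AT1G71695 (0.43 and -0.094), AT4G16270 (0.12 and -0.21) and AT4G25980 (-0.24 and 0.27). The same held for AT4G37520 (0.51 and -0.047) and AT5G40150 (0.16 and -0.24). With libraries 2 and 4 alone the fold change was -0.094 for AT1G71695, -0.047 for AT4G37520 and 0.53 for AT5G19890, and the last of these was called there (limma, adjusted p = 0.0189), against a fold change of -0.17 over all libraries. With libraries 2 and 4 averaged and a library set term it was -0.16 for AT5G64100. With each library left out it ranged from -0.20 to 0.25 for AT1G71695, from -0.37 to 0.12 for AT4G16270, from -0.14 to 0.48 for AT4G25980, from -0.22 to 0.32 for AT4G37520, from -0.48 to 0.32 for AT5G19890, from -0.51 to 0.17 for AT5G40150, from -0.079 to 0.71 for AT5G64100 and from -0.15 to 0.85 for *RBOHD*. The cause was not tested. AT5G51890 rests on 1 to 13 reads in wild-type libraries and PER62 on 1 to 6, which limits their fold changes.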
